A study of Sus scrofa with 26 samples.

Results

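In the backfat of pigs, a subcutaneous adipose tissue (SCAT), 10 genes of skeletal muscle fibres were followed, namely ACTA1, MYL1, TNNT3, TNNC2, TNNI2, CKM, ATP2A1, MB, MYH7 and MYBPC1. All probes that are no controls and whose gene name, accession or description gives one of these 10 genes were taken (2 probes that carry an accession of TNNC2 or MYH7 only in their own name were not), which gave 77 probes of 60305 on the array. ACTA1 had 17 probes, MYL1 had 16, CKM 11, MYH7 9, TNNC2 6, ATP2A1 6, TNNT3 5, TNNI2 3, MYBPC1 3 and MB 1. Of the 77 probes, 73 were well above background on at least 8 arrays and were tested, and all 10 genes had at least 1 tested probe. MB was well above background on 11 of the 26 arrays, and the untested probes were 2 of MYBPC1 (1 array each), 1 of MYH7 (7 arrays) and 1 of ATP2A1 (0 arrays).

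The 26 arrays each held the RNA of 1 castrated male growing pig, either Creole, Large White (LW) or a cross of these breeds (F1). Of the pigs kept at thermoneutrality (TN, 24 °C), 3 were Creole, 4 F1 and 4 LW, and each breed had 5 pigs under heat stress (HS). The heat stress is given as 30 °C by the labels and as 32 °C for 5 days by the series' text, and per the methods some HS pigs were slaughtered a day earlier. All TN pigs were killed before the room was warmed, so temperature, slaughter day and age cannot be told apart. Per the methods, littermates of a breed went to both temperatures, but litter and pen are not in the labels, and the p-values measure the spread between single pigs. Replicate numbers name the pigs of a group in the order of deposit and pair no pigs. Sets of probes for muscle, adipose tissue and immune genes had been added to the general porcine design of the array.

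In a muscle fibre, the sarcomere is built of actin filaments (ACTA1) and myosin filaments (the heavy chain MYH7 of slow fibres, the light chain MYL1 of fast fibres and the binding protein MYBPC1, best known from slow fibres). The troponin complex on the actin filament switches contraction on when calcium rises, and TNNC2, TNNI2 and TNNT3 are its calcium-binding, inhibitory and tropomyosin-binding subunits in fast fibres. CKM, the muscle creatine kinase, buffers ATP, MB (myoglobin) binds oxygen, and ATP2A1 (SERCA1) pumps calcium back into the sarcoplasmic reticulum of fast fibres. White adipocytes are not known to make these proteins in quantity, and in bulk tissue more cells of a type and more RNA per cell cannot be told apart.

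Some probes of these genes shared long runs of bases with probes of other genes or lay in the opposite orientation, and 3 pairs of 60-base probes are shown because 1 partner had a narrower range than other probes of the gene or was not well above background. The sequences are those of the scanner files, 5′ to 3′, with the shared run in capitals. The first pair is from skeletal actin ACTA1 and from ACTA2, the actin of smooth muscle, and the capitals mark 26 bases that both probes had in common.
ACTA1, A_72_P733238: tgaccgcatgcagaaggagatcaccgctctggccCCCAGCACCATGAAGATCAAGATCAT
ACTA2, O9213: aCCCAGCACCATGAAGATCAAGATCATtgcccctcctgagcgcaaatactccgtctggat
Over the 27 bases where these probes overlap, 26 were identical.

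The next probes are from fast troponin C and from SERCA1, and the capitals mark runs of 16 and 29 bases that are the reverse complement of each other, so that the partners read opposite strands.
TNNC2, A_72_P611718: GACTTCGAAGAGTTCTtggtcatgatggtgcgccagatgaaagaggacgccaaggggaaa
TNNC2, A_72_P070111: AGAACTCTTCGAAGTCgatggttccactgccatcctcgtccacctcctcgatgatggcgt
ATP2A1, A_72_P127906: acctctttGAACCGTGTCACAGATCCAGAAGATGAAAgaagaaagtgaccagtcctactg
ATP2A1, O1789: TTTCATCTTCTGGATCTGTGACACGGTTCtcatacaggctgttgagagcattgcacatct
The single myoglobin probe is shown because all values of MB rest on it.
MB, A_72_P302979: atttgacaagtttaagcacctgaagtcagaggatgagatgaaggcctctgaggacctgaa

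The 3 defining markers of adipocytes were checked first. On the log2 scale of the normalised intensity, FABP4, the adipocyte fatty acid-binding protein, lay between 18.20 and 18.47, the hormone ADIPOQ between 17.08 and 17.70 and the lipid droplet protein PLIN1 between 15.52 and 16.07 over the 26 arrays. The normalization gives all arrays the same set of values, which limits how far the brightest probes can spread. Of the 9 measured genes of the adipocyte list, ADIPOQ was higher in HS than in TN (0.16, adjusted p = 0.0384 by limma, list median 0.0039), where 5.17% of all probes were higher, and the hormone LEP was lower in LW than in Creole (-1.23, adjusted p = 0.0438, list median -0.11), where 7.43% of all probes were lower. Per array, between 41314 and 46185 probes were well above background, no spot was saturated, and the median correlation of an array with the others was between 0.981 and 0.989.

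The skeletal muscle genes were detected in every group, and most of them varied between pigs far more than the median transcript of the tissue. Each gene is represented below by its tested probe with the highest mean level, and levels are log2 values throughout. Between the lowest and the highest array, CKM differed 49.0-fold, MYL1 63.6-fold, MYH7 77.5-fold, TNNC2 45.9-fold, TNNI2 34.5-fold and TNNT3 26.5-fold, while the lowest MYBPC1 array was not well above background. The residual SD within groups of these 7 genes, from 1.08 for MYBPC1 to 1.38 for MYH7, lay at or above percentile 99.3 of all tested probes, whose median was 0.184. Of the 73 tested probes of the 10 genes, 47 (64.4%) spanned more than 5 log2 units over the arrays, against 213 of all 44703 tested probes (0.476%). These shares describe the spread and were given no test.

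The full set of CKM levels shows the pattern. At TN, the level of CKM was 14.55, 13.48 and 13.53 in Creole, 14.13, 13.27, 12.38 and 13.60 in F1, and 11.63, 13.70, 11.45 and 10.81 in LW. Under HS, it was 12.73, 13.72, 16.43, 15.07 and 12.02 in Creole, 11.91, 12.19, 13.78, 13.62 and 14.12 in F1, and 15.39, 12.70, 13.94, 13.08 and 14.06 in LW. The highest pig (Creole HS replicate 3) and one of the 5 lowest (Creole HS replicate 5) thus belonged to the same group, and 3 of the 4 LW TN pigs lay below every pig of the other groups.

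For MYL1, the fast light chain, the TN levels were 13.18, 12.01 and 12.21 in Creole, 13.28, 11.92, 11.08 and 12.48 in F1, and 10.20, 12.45, 10.13 and 9.18 in LW. The HS levels were 11.47, 12.39, 15.17, 13.50 and 10.43 in Creole, 10.64, 10.87, 12.58, 12.32 and 13.04 in F1, and 14.15, 10.82, 12.96, 11.70 and 12.58 in LW. The highest and the lowest pig were those of CKM.

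Of the fast troponins, the calcium-binding TNNC2 had TN levels of 13.11, 11.94 and 12.44 in Creole, 13.24, 11.87, 11.01 and 12.40 in F1, and 10.42, 12.47, 10.09 and 9.33 in LW. Its HS levels were 11.58, 12.28, 14.85, 13.38 and 10.37 in Creole, 10.80, 10.97, 12.38, 12.42 and 12.83 in F1, and 14.28, 11.10, 12.77, 11.65 and 12.50 in LW. The same 3 LW TN pigs as for CKM were low, together with Creole HS replicate 5. The inhibitory TNNI2 ranged from 8.29 to 13.40, with the same lowest and highest pig.

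The tropomyosin-binding TNNT3 had TN levels of 12.51, 10.51 and 11.26 in Creole, 11.95, 10.28, 9.27 and 10.73 in F1, and 8.92, 11.15, 8.50 and 7.99 in LW. Its HS levels were 9.68, 10.73, 12.72, 10.63 and 8.89 in Creole, 9.73, 9.09, 10.71, 10.64 and 10.78 in F1, and 12.07, 10.07, 10.64, 10.07 and 9.77 in LW. Here Creole TN replicate 1 (12.51) was nearly as high as Creole HS replicate 3.

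The slow fibre genes had the same extremes but another order in between. MYH7, the slow myosin heavy chain, had TN levels of 13.60, 11.73 and 10.79 in Creole, 11.83, 10.78, 9.49 and 10.49 in F1, and 9.72, 10.57, 9.86 and 7.99 in LW. Its HS levels were 10.15, 11.37, 14.26, 13.0035 and 8.98 in Creole, 10.09, 9.50, 11.59, 10.50 and 12.04 in F1, and 12.77, 11.06, 10.97, 9.74 and 11.87 in LW. Creole TN replicate 1 was the second highest pig for MYH7, whereas for MYL1 it fell behind 4 others.

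MYBPC1, the slow myosin-binding protein, had TN levels of 9.54, 7.12 and 6.72 in Creole, 7.85, 6.41, 6.18 and 7.08 in F1, and 6.12, 7.12, 5.73 and 5.34 in LW. Under HS, its levels were 6.08, 7.85, 9.91, 8.51 and 6.004 in Creole, 6.32, 5.73, 7.19, 6.76 and 7.38 in F1, and 8.0002, 6.51, 6.94, 6.02 and 7.25 in LW. Creole TN replicate 1 was again second, and the Creole pigs of both temperatures spread from 6.004 to 9.91.

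Myoglobin was much closer to the limit of detection. MB had TN levels of 6.57, 5.56 and 5.76 in Creole, 5.79, 5.61, 5.48 and 5.44 in F1, and 5.42, 5.77, 5.29 and 5.08 in LW. Under HS, the MB levels were 5.43, 5.73, 7.46, 6.39 and 5.27 in Creole, 5.40, 5.14, 6.58, 5.68 and 5.90 in F1, and 6.09, 5.54, 5.67, 5.47 and 5.74 in LW. Only 1 F1 TN pig and 1 LW TN pig had MB well above background, against 2 of 3 Creole TN, 3 of 5 Creole HS, 2 of 5 F1 HS and 2 of 5 LW HS pigs, so most of its values are not well above background.

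**Figure D1:**
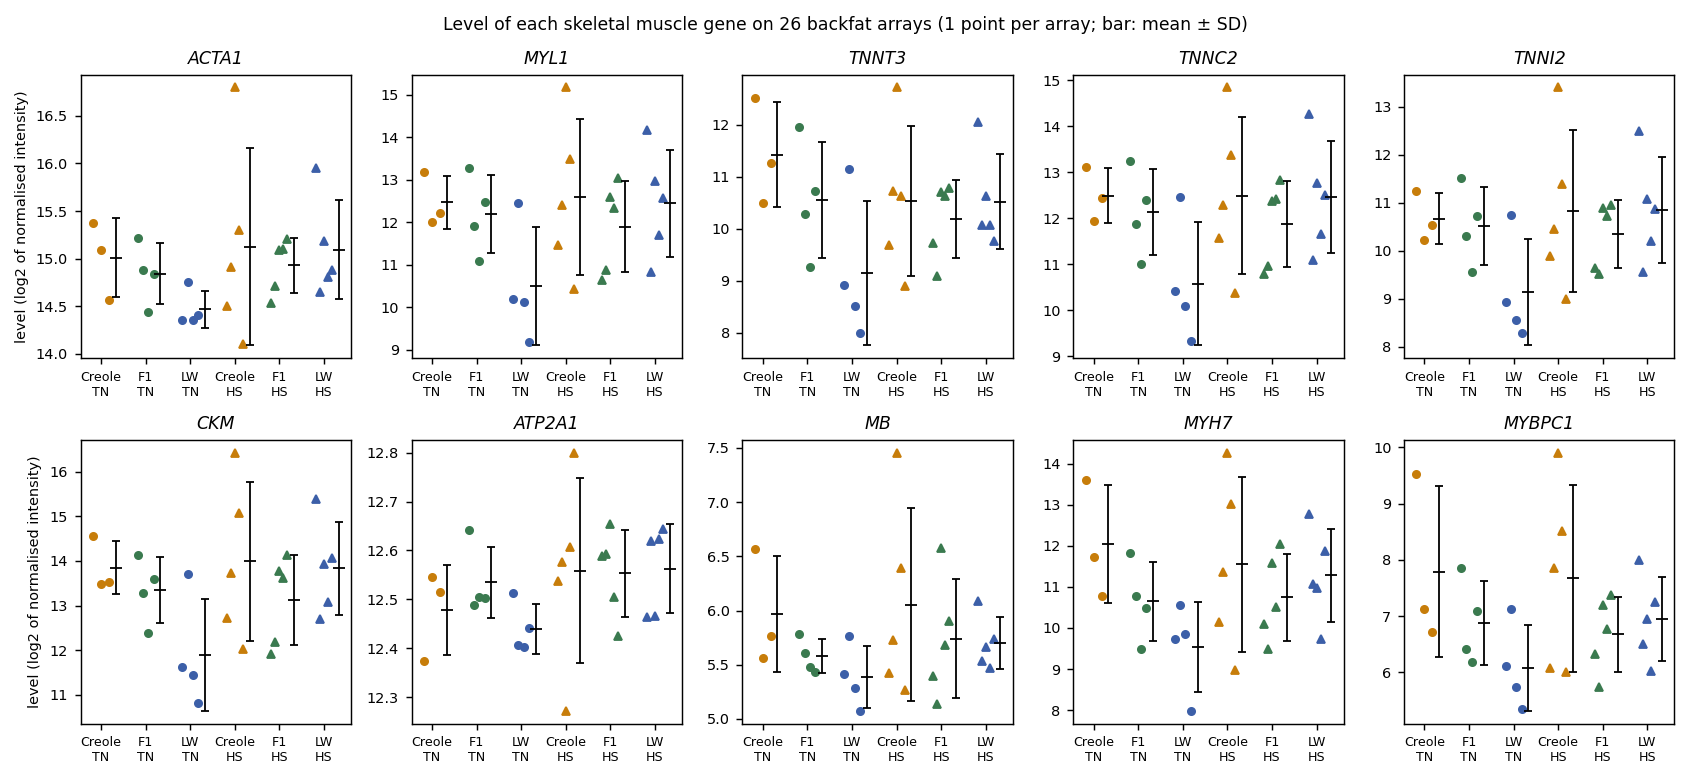
Level of each gene (log2 of the normalised intensity, y axis) on the 26 arrays by breed and temperature (x axis), for the tested probe with the highest mean. Circles are TN and triangles HS pigs, bars are the mean and SD of the group, and the y axes differ between panels. In 9 panels Creole HS replicate 3 is the highest point, and groups next to each other in the order of means overlap in every panel, while ATP2A1 spans only 0.53 log2 units.

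The group means of the Creole pigs were the highest for 8 of the 10 genes. The Creole HS mean was highest for CKM (13.99 ± 1.78, SD, n = 5), MYL1 (12.59 ± 1.83), ACTA1 (15.12 ± 1.04) and MB (6.05 ± 0.89), and the Creole TN mean for MYH7 (12.04 ± 1.43, SD, n = 3), MYBPC1 (7.79 ± 1.52), TNNT3 (11.43 ± 1.01) and TNNC2 (12.50 ± 0.59). TNNI2 (10.85) and ATP2A1 (12.56) had their highest mean in LW HS. The LW TN mean was the lowest of the 6 for all 10 genes, with 11.90 ± 1.25 (SD, n = 4) for CKM, 10.49 ± 1.39 for MYL1 and 9.53 ± 1.096 for MYH7. Of the 50 pairs of neighbours in these orders, all 50 had overlapping ranges and 46 had means closer than the larger of their SDs.

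Probes of the same gene were compared. The 16 MYL1 probes all spanned between 5.66 and 6.24 log2 units, and each had a median correlation of 0.996 or more with the other 15. The 11 CKM probes spanned between 4.001 and 5.73 and the 3 TNNI2 probes between 5.08 and 5.12. ACTA1 fell in 2 classes, with 10 probes that spanned between 5.66 and 6.32 and 7 that spanned between 2.69 and 3.71. The ACTA1 probe with the highest mean, A_72_P733238, belonged to the narrow class.

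On A_72_P248052, the wide ACTA1 probe that best followed the others, the TN levels were 14.99, 13.71 and 13.54 in Creole, 14.58, 13.50, 12.58 and 14.12 in F1, and 11.75, 13.87, 11.78 and 10.44 in LW. The HS levels of the same probe were 13.07, 13.68, 16.71, 14.98 and 12.18 in Creole, 12.04, 12.29, 14.01, 13.81 and 14.31 in F1, and 15.44, 12.65, 14.05, 12.97 and 14.11 in LW. These values spread 77.1-fold, against 6.46-fold on A_72_P733238, with the same highest and lowest pig as for CKM. None of the 10 wide ACTA1 probes shared a run of more than 17 bases with a probe of another named gene. The narrow probes A_72_P712823, A_72_P727093, A_72_P728918 and A_72_P763429 shared at most 15 bases with any probe outside ACTA1. For the other narrow probes, the longest such run was between 22 and 26 bases. Long shared runs were thus not common to all narrow probes.

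The narrow ACTA1 probe A_72_P733238 and the ACTA2 probe O9213, both printed above, were correlated. They spanned 2.69 and 1.33 log2 units, and over the 26 arrays r was 0.743 (2-sided permutation test, p = 4e-05) and Spearman's rho was 0.529 (p = 0.00575). Without the 2 pigs farthest from the median, r was 0.457, and it was 0.761 within groups and 0.795 within slides. The part of ACTA2 in the levels of the narrow ACTA1 probe was not tested.

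TNNC2 and ATP2A1 each had a probe with a narrow range, the dimmest of TNNC2 and the brightest of ATP2A1. The TNNC2 probe A_72_P070111 spanned 0.92 log2 units (8.44 to 9.36), whereas the 5 other TNNC2 probes, its opposite-strand partner among them, spanned between 5.45 and 5.78. The correlation of both partners was r = 0.281 (permutation test, p = 0.166, rho = 0.263, p = 0.195). The ATP2A1 probe with the highest mean, A_72_P141731, spanned 0.53 and was the reverse complement of another ATP2A1 probe, A_72_P263042, over 38 bases. That partner spanned 5.58 (7.82 to 13.40), and the correlation of both was r = -0.33 (permutation test, p = 0.104, rho = -0.21, p = 0.304), with r = -0.63 within groups and 0.0315 without the 2 farthest pigs. The ATP2A1 probe O1789 was not well above background on any array, while its partner A_72_P127906 was on 22 and spanned 3.31. The ATP2A1 values given by the highest-mean probe are thus those of a probe that parts from the 4 other tested ATP2A1 probes. After adjustment over the 5 probe pairs computed, and among the pairs reported here, A_72_P733238 with O9213 stayed under 0.05 for r and rho (adjusted p = 1e-04 and 0.0144 by the permutation test). O1789 with A_72_P127906 did so for r but not for rho (adjusted p = 0.00217 and 0.0822 by the permutation test).

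**Figure D2:**
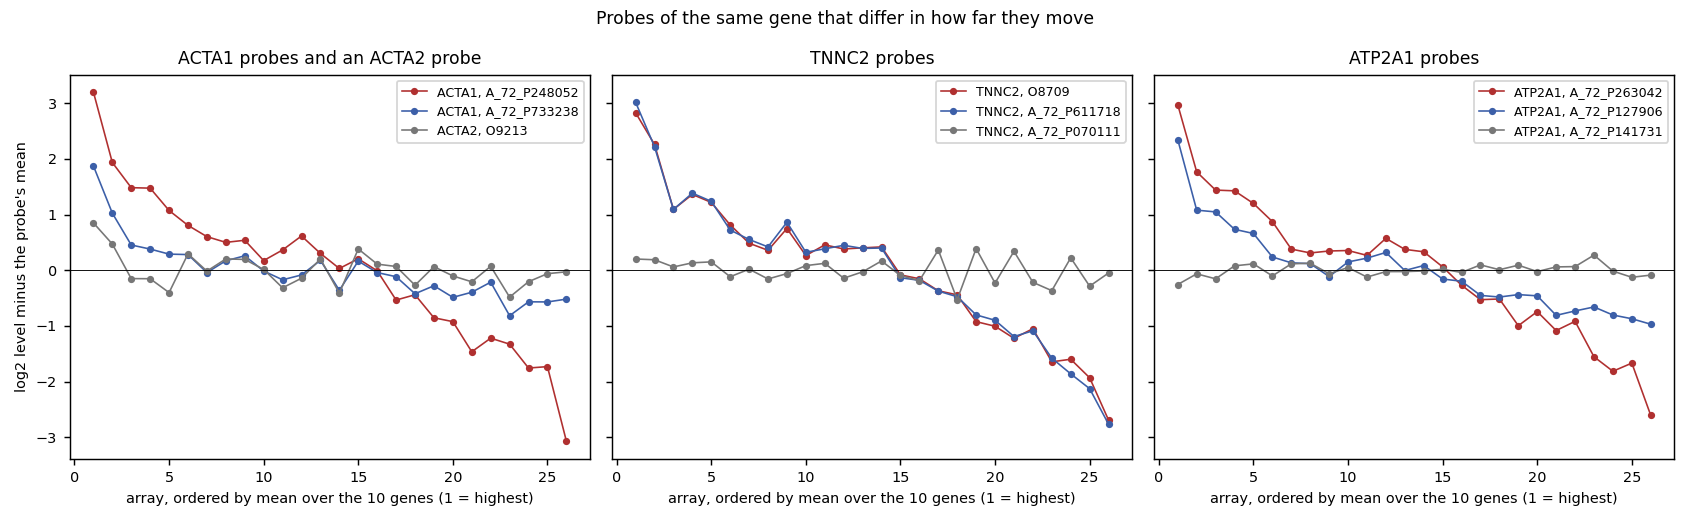
Log2 level minus the probe's own mean (y axis) for probes of ACTA1, ACTA2, TNNC2 and ATP2A1 on the 26 arrays (x axis, ordered by the mean of the 10 genes, 1 is the highest). The ACTA1 probe A_72_P248052 spans 6.27 log2 units and A_72_P733238 spans 2.69, while the TNNC2 probe A_72_P070111 and the ATP2A1 probe A_72_P141731 stay within 0.92 and 0.53.

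Across pigs, the levels of the 10 genes were correlated on the probe of each gene that best followed the gene's other probes, a choice made after seeing the data. On the highest-mean probe, ATP2A1 had r = -0.33 with the mean of the 10 genes. On the best-following probes, the 45 pairs had a Pearson correlation between 0.807 (TNNC2 with MB) and 0.997 (TNNT3 with TNNI2), with a median of 0.932, and a Spearman's rho between 0.869 and 0.991. Every pair had p = 1e-05 by a 2-sided permutation test for both measures, the smallest that 100000 permutations can give, and the same value after Benjamini-Hochberg adjustment over the 45 pairs. Without the 2 pigs farthest from the median, r ranged from 0.707 to 0.995. After the group means were removed it ranged from 0.820 to 0.997, and after the slide means were removed from 0.760 to 0.995.

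The pairs were also read by fibre type. The 6 pairs among MYL1, TNNT3, TNNC2 and TNNI2 had r between 0.985 and 0.997, and MYH7 with MYBPC1 had r = 0.959 (permutation test, p = 1e-05) and rho = 0.941. The 8 pairs of one of these 4 fast genes with a slow gene had r between 0.863 and 0.889, below those ranges. ATP2A1, also a fast fibre gene, did not follow this division, with r between 0.932 and 0.947 with the 4 fast genes, 0.919 with MYH7 and 0.943 with MYBPC1. These ATP2A1 values rest on the dim probe A_72_P127906, which lay between 5.43 and 8.74 and was well above background on 22 arrays only. The differences between these values were not tested.

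On the probe of each gene that best followed its other probes, the pigs at both ends kept their place. On Creole HS replicate 3 all 10 genes then had their highest level, and on LW TN replicate 4 all 10 had their lowest. On the highest-mean probes this did not hold for ATP2A1 and ACTA1. In LW TN only 1 of 4 pigs had MB and the best-following ATP2A1 probe well above background and 3 of 4 had MYBPC1, so the lowest ranks of these genes include values not well above background. LW HS replicate 1, Creole TN replicate 1 and Creole HS replicate 4 were among the 5 highest pigs for all 10 genes, and LW TN replicate 3 among the 5 lowest for all 10. Pigs in between changed places, as F1 TN replicate 4 ranked from 6 to 19 and F1 HS replicate 3 from 2 to 13. The mean of the 10 genes, each centred on its own mean, ran from 2.85 to -2.04 log2 units. By group, this mean was 0.50 ± 0.74 (SD, n = 3) in Creole TN, 0.03 ± 0.72 (n = 4) in F1 TN, -1.15 ± 0.97 (n = 4) in LW TN, 0.51 ± 1.61 (n = 5) in Creole HS, -0.17 ± 0.77 (n = 5) in F1 HS and 0.25 ± 0.92 (n = 5) in LW HS.

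The first comparison asked whether the muscle genes differed with temperature, over the 3 breeds together. None of the 10 genes passed the threshold (adjusted p under 0.05 by limma over all 44703 probes) for HS minus TN, where 12.2% of all probes did (5.17% higher and 7.02% lower). None had an unadjusted p under 0.05, against 26.9% of all tested probes. The 73 probes gave 0 calls as well, and 72 of them had a positive difference, with a median of 0.53 against 0.0024 over all tested probes. The probes of a gene and the genes themselves move together, so that these 72 signs are not independent.

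The largest difference was that of CKM, with a mean of 13.65 ± 1.29 (SD, n = 15) in HS and 12.96 ± 1.21 (n = 11) in TN and an estimated difference of 0.64 (SE 0.46, 95% interval from -0.30 to 1.59, adjusted p = 0.392 by limma). Of the 15 HS pigs, 10 lay above the TN mean of their own breed. For MYL1 the difference was 0.62 (interval from -0.41 to 1.64), for TNNI2 0.59 (from -0.29 to 1.46), for TNNC2 0.57 (from -0.40 to 1.55) and for MYH7 0.50 (from -0.57 to 1.58). ACTA1 differed by 0.28, MYBPC1 by 0.20, MB by 0.19, TNNT3 by 0.09 and ATP2A1 by 0.07, with adjusted p-values between 0.327 and 0.922. The sign of TNNT3 turned in 7 of 38 alternatives, 6 of them single arrays left out (LW TN replicates 1, 3 and 4, LW HS replicate 1, F1 TN replicate 3 and Creole HS replicate 3). The 5 TNNT3 probes gave differences from 0.09 to 0.77, and the 17 ACTA1 probes from 0.28 to 0.59. The 4 other tested ATP2A1 probes gave 0.46, 0.14, 0.06 and -0.08. Without LW TN replicate 4 the difference was 0.27 for MYH7, 0.40 for MYL1 and 0.37 for TNNC2, and without Creole HS replicate 3 it was 0.05 for MYBPC1, 0.10 for MB and 0.17 for ACTA1. Without Creole TN replicate 1 it was 0.77 for MYH7 and 0.43 for MYBPC1. Within the 5 slides, the CKM difference was -1.85, 0.03, 1.103, 1.18 and 1.94, each from 4 to 7 arrays, and the first slide held no LW pig while the fifth held 2 LW TN pigs as its only TN arrays.

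Within LW, all 10 genes had a positive HS minus TN difference, with 1.94 for CKM (interval from 0.42 to 3.46), 1.95 for MYL1 (from 0.29 to 3.61), 1.88 for TNNC2 (from 0.31 to 3.45) and 1.71 for TNNI2 (from 0.30 to 3.13). These 4 genes had unadjusted p-values between 0.0148 and 0.0234, and none passed after adjustment (lowest adjusted p = 0.178 by limma), where 1.5% of all probes did (0.403% higher and 1.09% lower). Of the 73 probes, 50 had an unadjusted p under 0.05, against 16.7% of all tested probes, and these 50 are probes of few genes on the same 9 pigs. ATP2A1 had 0.12 on its highest-mean probe and from 0.24 to 1.65 on the 4 others. The ranges of CKM overlapped through LW TN replicate 2, whose CKM level of 13.70 lay above those of 2 LW HS pigs.

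Within Creole, 6 of the 10 genes had a positive and 4 a negative difference (down to -0.89 for TNNT3), and within F1 these were 4 and 6. Of the 73 probes, 52 were positive and 21 negative in Creole, against 9 and 64 in F1. The 4 other TNNT3 probes gave 0.77, 0.07, 0.10 and 0.20 within Creole. Within F1, ACTA1 had 0.08 on its narrow highest-mean probe and -0.40 on the wide A_72_P248052. ATP2A1 had 0.02 there on its highest-mean probe, and -0.28, -0.24, -0.32 and -0.08 on the 4 other tested probes. In Creole the CKM difference was 0.14 (interval from -1.52 to 1.80) and in F1 it was -0.22, and again 0 of 10 genes passed, against 0.0716% of all probes in Creole (0.00895% higher and 0.0626% lower) and 0.421% in F1 (0.112% higher and 0.309% lower). No gene had an unadjusted p under 0.05 in these 2 breeds, against 11.1% of all tested probes in Creole and 16.0% in F1. For the interaction between both factors none of the 10 genes passed (adjusted p from 0.897 to 0.984 by limma), against 0.00224% of all probes. None had an unadjusted p under 0.05, against 5.23% of all tested probes, so a difference between breeds in the response was not shown.

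**Figure D3:**
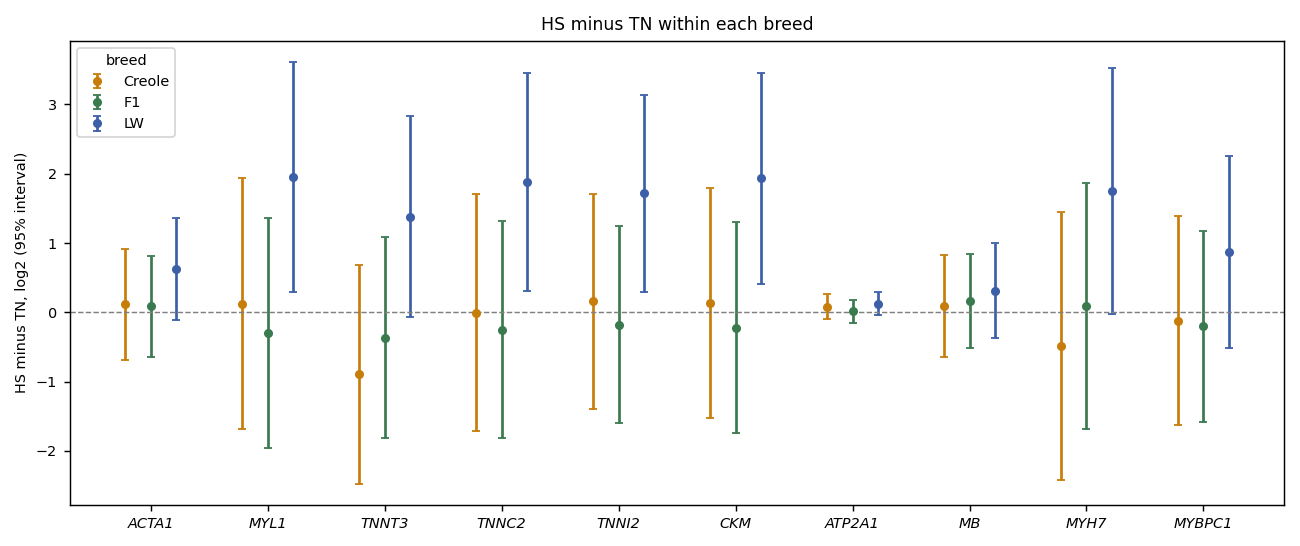
HS minus TN difference in log2 units (y axis) of the 10 genes (x axis) within Creole, F1 and LW, as points with 95% intervals. The LW points lie above 0 for all 10 genes, between 0.12 for ATP2A1 and 1.95 for MYL1, and the intervals of the 3 breeds overlap for every gene.

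The second comparison asked whether the muscle genes differed between breeds. All 10 genes had lower estimates in LW than in Creole, and none passed the threshold, where 14.3% of all probes did (6.89% higher and 7.43% lower). MYBPC1 came closest, with 6.56 ± 0.84 (SD, n = 9) in LW and 7.72 ± 1.498 (n = 8) in Creole, a difference of -1.14 (SE 0.48, interval from -2.13 to -0.15, adjusted p = 0.112 by limma), and it was the only gene with an unadjusted p under 0.05. Without Creole HS replicate 5, a pig with 6.004, the difference was -1.40 and its adjusted p by limma was 0.0390, while over the other alternatives MYBPC1 did not pass.

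MYH7 differed by -1.19 (interval from -2.51 to 0.12), TNNT3 by -0.95 (from -2.07 to 0.16), MYL1 by -0.93 (from -2.18 to 0.33), CKM by -0.92 (from -2.08 to 0.24) and TNNC2 by -0.83 (from -2.02 to 0.36). TNNI2 differed by -0.64, MB by -0.45, ACTA1 by -0.25 and ATP2A1 by -0.02. Without Creole HS replicate 3, the difference was -0.59 for MYL1, -0.60 for CKM, -0.53 for TNNC2, -0.30 for TNNI2, -0.25 for MB and -0.018 for ACTA1, which was at -0.40 without Creole HS replicate 5. Of the 73 probes, 72 had a negative difference, with a median of -0.94 against 0.0025 over all tested probes, 4 had an unadjusted p under 0.05, against 29.0% of all tested probes, and none was called. A wide ACTA1 probe, A_72_P248052, gave -1.06 (interval from -2.29 to 0.16), where the narrow A_72_P733238 gave -0.25. The 4 other tested ATP2A1 probes gave -0.21, -0.62, -0.80 and -1.07, where A_72_P141731 gave -0.02.

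Any difference between the 3 breeds was past the threshold for none of the 10 genes (lowest adjusted p = 0.209 by limma, no unadjusted p under 0.05), where 11.3% of all probes passed. The F1 pigs minus the mean of the parent breeds gave differences from -0.40 for MYH7 to 0.03 for ATP2A1 and 0 calls (lowest adjusted p = 0.837 by limma, no unadjusted p under 0.05), against 0.00671% of all probes (0.00224% higher and 0.00447% lower). Of all tested probes, 26.6% had an unadjusted p under 0.05 for any breed difference and 8.69% for F1 minus the mean of the parents. For CKM the F1 mean was 13.22 ± 0.85 (SD, n = 9).

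**Figure D4:**
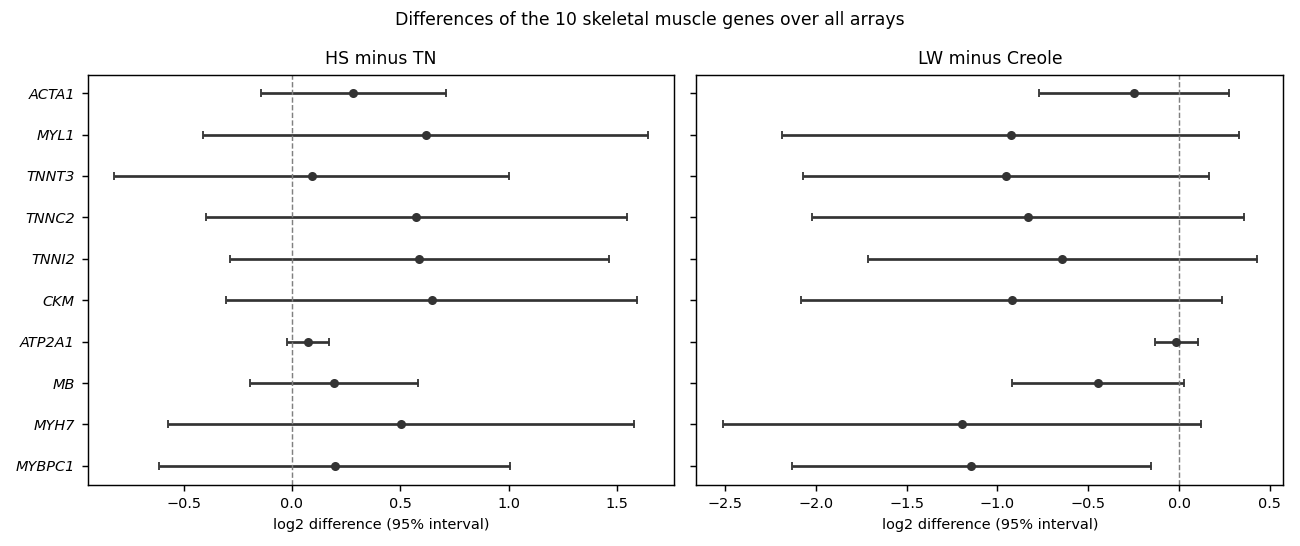
Estimated log2 differences (x axis) of the 10 genes (y axis) for HS minus TN and for LW minus Creole, with 95% intervals. The HS minus TN points lie between 0.07 and 0.64 with intervals that all include 0, and the LW minus Creole points between -1.19 and -0.02, where the interval of MYBPC1 alone ends below 0.

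Lists of other muscle genes are given beside the share of all probes called, which was 12.2% for HS minus TN and 14.3% for LW minus Creole. Of 37 other sarcomere genes 33 were measured, and for HS minus TN 1 was higher and 32 were not called, with a median difference of 0.25, where 5.17% of all probes were called higher. The one that passed was FHL1, a LIM protein that is also made in many other tissues (0.24, adjusted p = 0.00569), and it spanned only 0.75 log2 units. For LW minus Creole none of the 33 was called, 27 had negative differences and the median was -0.65.

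None of the 11 measured genes of calcium handling and excitation was called in either comparison, with medians of 0.21 for HS minus TN and -0.41 for LW minus Creole. Of 12 measured genes of muscle energy metabolism, none was called for HS minus TN (median 0.16) and 2 were lower in LW than in Creole (median -0.50), where 7.43% of all probes were. They were PHKG1, a subunit of phosphorylase kinase (-0.88, adjusted p = 0.0323), and SLC25A4, the mitochondrial ADP/ATP carrier (-0.33, adjusted p = 0.0251), with r = 0.144 and 0.299 with the mean of the 10 genes.

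Of 10 measured muscle regulators and atrophy genes, 2 were higher and 1 was lower in HS than in TN, where 5.17% of all probes were higher and 7.02% lower. MYOG, the myogenic transcription factor, rose by 0.21 (adjusted p = 0.0259), and MSTN, the growth inhibitor myostatin, rose by 0.18 (adjusted p = 0.0312). PAX7, the satellite cell factor, fell by 0.21 (adjusted p = 0.0428). In LW, MYOG was also higher than in Creole, by 0.43 (adjusted p = 0.000961). Their correlations with the mean of the 10 genes were r = -0.29 for MYOG, 0.0577 for MSTN and -0.04 for PAX7, and each spanned at most 1.02 log2 units.

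The named genes most like the 10 in their pattern over the 26 arrays were found by their correlation with the mean of the 10 centred levels. The value of r was 0.990 for CASQ1, which stores calcium in the sarcoplasmic reticulum of fast fibres, 0.989 for MYOZ1 and 0.985 for MYOZ3, both proteins of the Z-disc. It was 0.986 for COX8H, the heart and muscle form of a cytochrome oxidase subunit, 0.984 for ANK1, an ankyrin, 0.982 for MYLPF, a fast light chain, and 0.981 for the fast myosin MYH1. The slow troponin TNNC1 (0.981), SMPX (0.980) and TRDN (0.979), of the calcium release site, completed the 10 closest of 10116 genes. These correlations are descriptions of 26 shared arrays, and the median over all genes was -0.02.

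Of those 10116 genes, 43 had r over 0.8, and 32 of these 43 belonged to the wider muscle lists, which have 66 measured genes. Of the 213 tested probes that spanned more than 5 log2 units, 47 belonged to the 10 genes, 52 to the wider muscle lists, 66 to other named genes and 48 to no named gene. All 47 probes of the 10 genes and 51 of the 52 muscle list probes had r over 0.8 with the mean of the 10, as did 14 of the 48 probes with no gene name and none of the 66 probes of other named genes. The probes of the 10 genes belong to the genes that make up this mean.

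The cardiac and smooth muscle lists spanned less than the list of the 10 genes. ACTC1, MYL2 and TNNC1 were in the sarcomere list instead of the cardiac one. Their r with the mean of the 10 was 0.935, 0.957 and 0.981. Of the 8 cardiac genes 5 were measured, and NPPA, the atrial natriuretic peptide, spanned 1.05 log2 units with r = 0.0137 with the mean of the 10, while TNNI3, cardiac troponin I, spanned 1.32 with r = 0.373. MYH6, the atrial myosin, had no named probe. MYH11, the smooth muscle myosin, spanned 1.38 with r = -0.06. Smooth muscle genes had a median HS minus TN difference of 0.19 and cardiac genes of 0.04, with no call among 8 and 5 measured genes.

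CKM was set against single genes of other cell types. No relation passed the threshold after adjustment. For the adipocyte genes, r was -0.02 for ADIPOQ (rho = -0.06), 0.132 for PLIN1 (rho = 0.0961) and 0.213 for FABP4 (rho = 0.267), all with adjusted p of 0.542 or more by permutation tests over 10 relations. The other values were those of the endothelial PECAM1 (r = -0.10, rho = -0.14), the collagen gene COL1A1 (r = -0.26, rho = -0.21), MYH11 (r = -0.05, rho = -0.14), KRT5 of keratinocytes (r = -0.12, rho = -0.15) and ALAS2 of red cell precursors (r = 0.149, rho = 0.251). The strongest relation was with CD68 of macrophages, with r = 0.382 (permutation test, p = 0.0558, adjusted p = 0.558) and rho = 0.428 (p = 0.0308, adjusted p = 0.308). Without the 2 farthest pigs it was r = 0.252, and within slides 0.466.

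Markers of other cell types were also called on the same arrays. The nerve and Schwann cell list had a summed level (mean of centred genes) from -0.60 to 0.16 in TN and from -0.25 to 0.73 in HS, with 3 of 7 measured genes called higher in HS, and the fibroblast and matrix list from -0.80 to 0.23 in TN and from -0.21 to 0.50 in HS, with 4 of 9 called higher, where 5.17% of all probes were. Of the other lists, 1 of 6 measured endothelial genes and 1 of 4 red blood cell genes were called lower in HS, where 7.02% of all probes were, and none of 6 macrophage and 2 keratinocyte genes was called. The list of the 10 muscle genes had from -1.85 to 1.28 in TN and from -1.14 to 2.40 in HS. The 2 measured keratinocyte genes spanned more, from -1.64 to 2.02 in TN and from -1.81 to 2.88 in HS. For LW minus Creole, 3 of the 9 fibroblast and matrix genes, 2 of the 7 nerve genes and 1 of the 6 endothelial genes were called higher, where 6.89% of all probes were. Within LW, 3 of the 7 nerve genes were called higher in HS, where 0.403% of all probes were. The part of the other cell types in the muscle gene levels was not tested.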

How the data were processed

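RNA from 26 pigs was hybridised to 26 one-colour arrays. The deposited scanner files give median, mean and background intensity per spot, a processed intensity and spot flags (Feature Extraction 10.10.1.1), none scaled between arrays. A matrix by the authors has log2 quantile-normalized values for 44104 probes, which correlated with the same arrays at 0.999997 or more and served as an alternative.

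Here, median intensities were quantile-normalized and taken to log2, with non-uniform spots missing (R 4.3.3 with limma 3.58.1; files were read by version 1.17.8 of data.table). A probe was tested if 8 or more arrays had it well above background, which left 44703. limma's lmFit and eBayes (trend) gave HS minus TN with breed as a term, breed effects with temperature as a term, and, from 6 group means, the changes per breed and the interaction. Benjamini-Hochberg adjustment ran across the tested probes at 0.05. Pen, slaughter day, father and mother, random terms of the study's model, are not in the labels. Precision is set by how many arrays there are. The fit was tested on simulated data.

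Of 60306 spots, 9604 were named by accession, 14560 by symbol and 198 by synonym, using pig genes of Sscrofa11.1. MB was named by the files alone. Of the 77 probes, 76 were named by the gene name and 1 by its description. Probes were not realigned. Results of 1 probe pair and 1 marker gene are not reported here. Runs of 14 or more bases shared between probes were searched on both strands. The tested probe with the highest mean stood for each gene. Named beside the 10 genes were up to 4 called genes per muscle list, the 10 genes with the highest correlation and the defining markers of fat, heart and smooth muscle. ACTC1 and MYL2 were named after seeing the data. The other cell type genes set against CKM, and the probe that best followed a gene's other probes, were chosen after seeing the data. The members and lists were chosen with earlier results of these data known. Alternatives covered background and scaling, the authors' values, filters, slide, breed term, array weights, trend, mean over probes and leaving out each array.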

Additional observations from a re-analysis of the deposited data

Results flagged for a closer look

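Dixon's criterion was applied to 50 groups of 4 or 5 arrays (10 genes in 5 groups), of which chance would pick about 1 in 20, and 2 held an array far from the others. In LW TN, ACTA1 on replicate 2 was at 14.75, above the other 3 pigs, which lay between 14.35 and 14.41. In F1 TN, ATP2A1 on replicate 1 was at 12.64, above the other 3 pigs, which lay between 12.49 and 12.50.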

How the results depend on the processing

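Over 38 alternatives for HS minus TN and 37 for each other comparison, 0 of the 10 genes passed, except for LW minus Creole, where the count ranged from 0 to 1 with single arrays left out (MYBPC1 passed without Creole HS replicate 5). The lowest adjusted p by limma over the alternatives was 0.129 for HS minus TN and 0.0915 within LW. Of 744 values of single genes, 9 had the other sign. For HS minus TN, TNNT3 was at -0.0045 with array weights, ranged from -0.10 to 0.30 with arrays left out and was 0.50 on its best-following probe, and ATP2A1 was at -0.000244 with the processed signal scaled to the 75th percentile. For LW minus Creole, ATP2A1 ranged from -0.055 to 0.020 with arrays left out and was -0.62 on its best-following probe. With the processed signal, MB was at 0.41 for HS minus TN and -1.003 for LW minus Creole, and MYBPC1 at 0.52 for HS minus TN. Over all probes, 3531 were called for HS minus TN without the breed term, against 5447, and within LW the 669 calls ranged from 112 (without LW TN replicate 2) to 1209 (array weights), the 32 calls within Creole from 0 to 205 (without Creole HS replicate 3) and the 188 within F1 from 0 to 556 (array weights), or 494 without Creole HS replicate 5. The 3 calls for F1 minus the mean of the parents ranged from 0 (slide as a fixed block) to 51 (without Creole TN replicate 2), with 36 without LW HS replicate 5, 35 without Creole HS replicate 4 and 15 without Creole HS replicate 3. The 1 call for the interaction ranged from 0 (slide as a fixed block) to 4 (without Creole HS replicate 4). MB could not be computed with the authors' values, nor MB and MYBPC1 with probes well above background on all arrays. No paired analysis was possible because the sample numbers in the labels are not shared between groups and neither litter nor pen is given. Signal over background limits MB. The cause of these shifts was not tested.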
